A study of Mus musculus with 12 samples.

Results

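Leukocytes hold on to vessel walls, to matrix and to each other through integrins, which are pairs of an alpha and a beta subunit on the cell surface, and they roll on endothelium through ligands of selectins. The genes described here are 8 leukocyte adhesion genes chosen by name: Itgam, Itgal, Itgax and Itgb2 of the beta 2 integrins, Itga4 and Itgb7 of the alpha 4 beta 7 integrin, Selplg, the main ligand of P-selectin, and Cd44, the hyaluronan receptor. They are 8 of 20711 genes with a value. Of 318760 probe sets that name a single gene symbol, 212 name 1 of the 8, and each gene value is a median polish, a robust average, over those of its probe sets whose mean lay above the median of all probe sets.

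RNA was measured on 12 Affymetrix mouse exon arrays, 4 for each of 3 groups of cultured marrow cells. The cells of all 3 groups came from bone marrow of female C57B/6 mice, 12 weeks old and given 5-FU, a drug that depletes dividing marrow cells. They grew in DMEM with 15% FCS, IL3, SCF and IL6, and every culture overexpressed Hoxa9, a homeobox gene that keeps myeloid progenitors growing, from MSCV, a retroviral vector. The group HOXA9+MIY also received the empty MIY vector, HOXA9+MEIS1 received Meis1, a homeobox partner of Hoxa9, and HOXA9+MDHD received Meis1 with the homeodomain (DHD) deleted. In each group 2 arrays date from culture week 3 and 2 from week 4. The labels speak of independent experiments and do not say whether week 3 and week 4 arrays share cultures, so that p-values measure the spread between these arrays. The marrow was bulk culture, in which fewer cells of a type and less RNA per cell cannot be told apart.

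The beta 2 subunit, encoded by Itgb2, reaches the cell surface only with a partner. With the product of Itgal it forms LFA-1, which binds ICAM molecules and is shared by most leukocytes. With that of Itgam it forms Mac-1, a receptor for complement and fibrinogen that is a standard marker of granulocytes and monocytes, and with that of Itgax it forms the receptor known as CD11c, high on dendritic cells and some macrophages. The alpha 4 subunit pairs with beta 1 or beta 7 and binds VCAM1, fibronectin or the gut addressin MAdCAM1, and it holds progenitors in the marrow. Selplg and Cd44 carry sugars that selectins recognise, and Cd44 also binds hyaluronan and is spliced into many forms.

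The RefSeq promoter table (build GRCm38.p6) held 5 of the 8 genes, all but Itgal, Itgb2 and Selplg. The 250 bases before the start are shown for Itgam and Itgb7, the members that differed most between groups and in opposite directions, and for Itgax, a beta 2 alpha subunit gene like Itgam with no called difference. They lie at chr7:128062390-128062639 (plus strand) for Itgam, chr7:128129300-128129549 (plus strand) for Itgax and chr15:102231936-102232185 (minus strand) for Itgb7, and each is written 5′ to 3′ on the strand of its gene. Capitals mark GAGGAA or its reverse complement TTCCTC, the core bound by PU.1, an ETS factor of myeloid cells.

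Itgam: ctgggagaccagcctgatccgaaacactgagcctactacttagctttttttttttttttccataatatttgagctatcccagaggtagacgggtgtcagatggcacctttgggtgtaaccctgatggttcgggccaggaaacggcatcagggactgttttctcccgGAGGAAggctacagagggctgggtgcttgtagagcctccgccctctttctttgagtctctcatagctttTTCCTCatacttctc
Itgax: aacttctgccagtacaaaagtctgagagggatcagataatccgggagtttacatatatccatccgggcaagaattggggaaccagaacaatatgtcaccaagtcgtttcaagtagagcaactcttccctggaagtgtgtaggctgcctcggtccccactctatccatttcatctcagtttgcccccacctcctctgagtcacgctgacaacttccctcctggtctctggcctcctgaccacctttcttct
Itgb7: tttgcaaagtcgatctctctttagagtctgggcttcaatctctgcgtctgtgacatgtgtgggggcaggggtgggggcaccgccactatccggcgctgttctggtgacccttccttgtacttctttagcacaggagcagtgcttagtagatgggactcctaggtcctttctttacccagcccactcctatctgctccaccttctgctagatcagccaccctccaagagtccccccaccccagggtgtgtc

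Itgam held 2 matches to GAGGAA on either strand, 84 to 79 and 15 to 10 bases before the start. Cd44 also held 2, and Itgax, Itga4 and Itgb7 held none, while 23.3% of the 32851 promoters in the table hold at least 1. TGTGGT, a RUNX core, was matched once, in Itga4, against 14.0% of promoters. TGACAG, a MEIS site (15.9% of promoters), TTTATGG, a HOXA9 site (2.43%), and TTGCNNAA, a C/EBP site (9.56%), were matched in none of the 5. These are matches of letters in a window of 250 bases, with no measurement of binding, and no match speaks only of this window.

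Arrays correlated at 0.965 to 0.990 over the named probe sets, and Hoxa9 stood between 13.29 and 13.37 as the mean of each group. In 3 Meis1 probe sets, chosen because HOXA9+MEIS1 exceeded HOXA9+MDHD there by at least 10-fold, the mean log2 value was 6.04 to 6.56 in HOXA9+MIY and 12.83 to 13.06 in HOXA9+MEIS1. In HOXA9+MDHD it was 8.97 and 7.63 at week 3 and 8.67 and 6.80 at week 4 (replicates 1 and 2), so that this group was not uniform in signal from these probe sets. They were chosen by that difference and not by position, and whether they lie in the deleted part of Meis1 was not analysed here. Markers of late neutrophils (13 genes, mean log2) stood at 9.86 to 10.79 with the empty vector (HOXA9+MIY). They stood at 8.05 to 8.32 with full-length Meis1 and at 8.29 to 10.18 with the deleted form. Called means a limma p under 0.05 once adjusted over all genes by Benjamini-Hochberg. Of the 13, 12 were called lower in HOXA9+MEIS1 than in HOXA9+MIY, where 5.56% of all genes were called lower and 5.29% higher. Of 12 monocyte and macrophage markers 9 were called lower in that comparison and 1 was called higher (9.76 to 10.00, 8.58 to 8.69 and 9.33 to 9.79 by group). Of 6 progenitor markers that no vector delivers 4 were called higher (9.14 to 9.41, 10.32 to 10.69 and 9.71 to 10.13). Hoxa9 and Meis1 were taken out of this list after seeing the data. Markers of T and NK cells (7.08 to 7.29 over all arrays) were called in 0 of 7 cases, and those of B lymphoid cells (7.01 to 7.28) in 1 of 5. The part of any shift in cell types in the differences below was not tested.

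**Figure D1:**
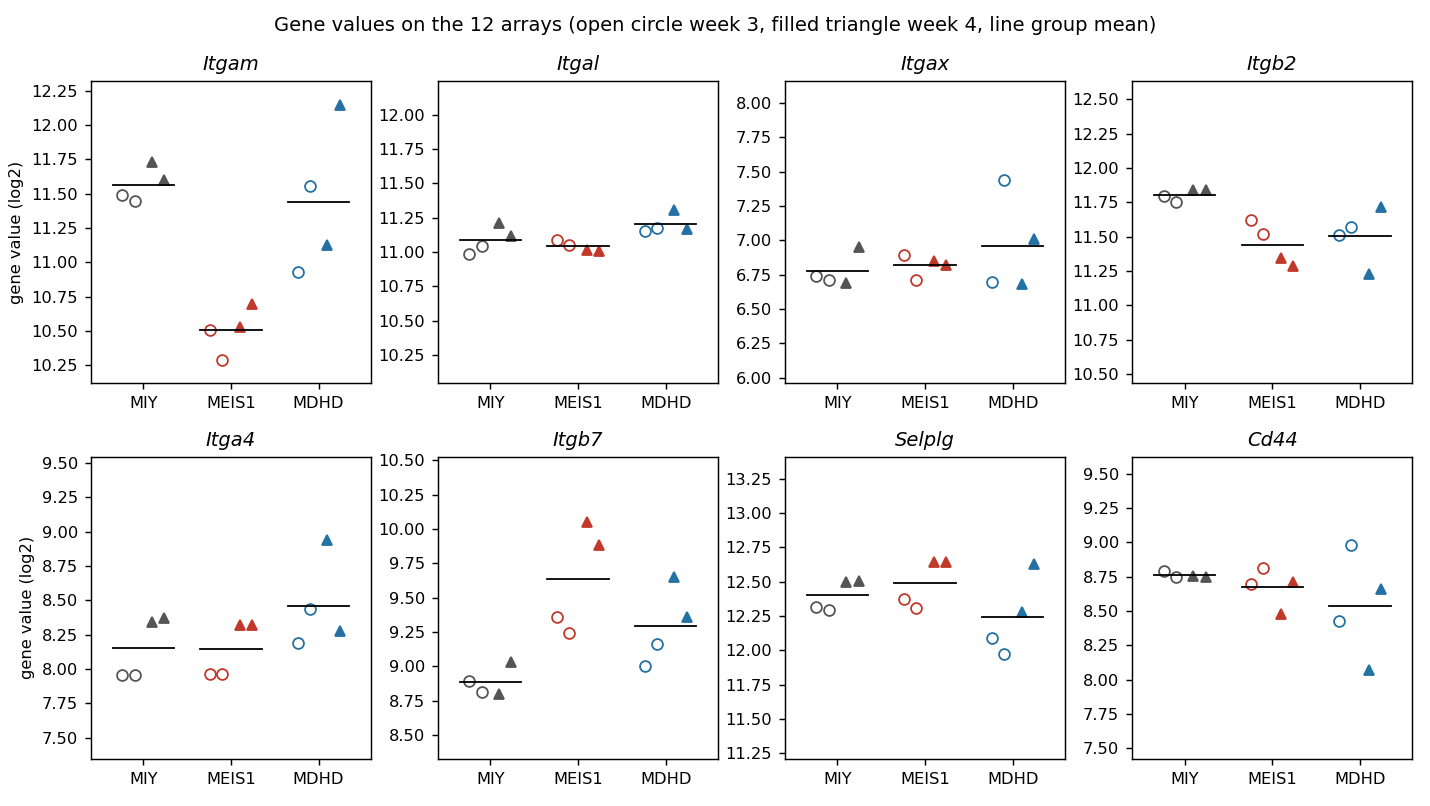
Gene value (log2) of each member on the 12 arrays, by group, with open circles for week 3, filled triangles for week 4 and a line at the group mean. Every panel spans the same log2 range, so that the 4 HOXA9+MEIS1 arrays of Itgam, 10.29 to 10.70, stand apart from the 4 HOXA9+MIY arrays, 11.45 to 11.73, while Itgal varies little.

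Setting HOXA9+MEIS1 against HOXA9+MIY asks what full-length Meis1 changes in cells that already carry Hoxa9. Itgam was 2.08-fold lower and Itgb2 1.29-fold lower with Meis1, and Itgb7 was 1.68-fold higher, while the other 5 members were not called. As for the markers, called here and below means a limma p under 0.05 once adjusted over all genes by Benjamini-Hochberg. So 3 of 8 were called, 1 higher and 2 lower, where 10.8% of all genes were called, 5.29% higher and 5.56% lower. The median log2 difference of the 8 was -0.030, beside -0.0055 for all genes. In 3 members the 4 arrays of each group did not overlap, against 11% of all genes.

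Itgam, the Mac-1 alpha subunit gene, stood at 11.49, 11.45, 11.73 and 11.60 in HOXA9+MIY (week 3 replicates 1 and 2, then week 4, the order kept below). In HOXA9+MEIS1 it stood at 10.51, 10.29, 10.53 and 10.70, and in HOXA9+MDHD at 10.93, 11.56, 11.12 and 12.15. All arrays with full-length Meis1 lay below all others, and the HOXA9+MDHD arrays spread from below the lowest to above the highest HOXA9+MIY array. The log2 difference between HOXA9+MEIS1 and HOXA9+MIY was -1.06 ± 0.184 (limma's standard error, adjusted p = 0.00242), at -1.07 within week 3 and -1.05 within week 4. With the week 4 arrays alone in the fit its adjusted p was 0.0941.

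The difference ran through most of the gene. Of its 41 probe sets 33 were called lower in HOXA9+MEIS1 than in HOXA9+MIY, while of all named probe sets 3.5% were called lower and 3.2% higher, and none was called higher. Among the 40 above the filter the log2 differences ran from -1.38 to 0.13 with a median of -1.12. They fell into separate sets, since 6 probe sets differed by only -0.10 to 0.13 and each departed from the rest of the gene by both of the tests used, diffSplice and limma with the spread of the probe set itself (adjusted p of 0.00111 to 0.0297 and of 0.00684 to 0.0250). In these 6, identified on the array as 4480236, 4724992, 4830335, 5010910, 5259711 and 5555507, the group means lay within 0.13 of each other. Such departures by the paired tests were found in 0.808% of 227973 probe sets. Where these probe sets lie along Itgam was not analysed here.

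Itgb2, the shared beta subunit gene, had a smaller difference than Itgam. It stood at 11.79, 11.75, 11.84 and 11.84 in HOXA9+MIY, at 11.62, 11.52, 11.35 and 11.28 in HOXA9+MEIS1, and at 11.51, 11.57, 11.23 and 11.72 in HOXA9+MDHD. Every array with either form of Meis1 lay below every HOXA9+MIY array. The log2 difference between HOXA9+MEIS1 and HOXA9+MIY was -0.36 ± 0.092 (adjusted p = 0.0232 by limma), with -0.20 at week 3 and -0.52 at week 4, and the change of the difference between the weeks was not called (adjusted p = 0.817). All 18 of its probe sets were lower, with differences of -0.55 to -0.23, and 11 of them were called. The call was lost when any 1 of the week 4 arrays of HOXA9+MIY or HOXA9+MEIS1 was left out (adjusted p of 0.0766 and 0.0779, and of 0.0688 and 0.0819, log2 -0.34 to -0.32), and also without the week term (0.0809).

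Itgal and Itgax, the other alpha subunit genes of the family, were not called. Itgal ranged from 10.98 to 11.21 in HOXA9+MIY, from 11.01 to 11.09 in HOXA9+MEIS1 and from 11.16 to 11.31 in HOXA9+MDHD, and its difference between HOXA9+MEIS1 and HOXA9+MIY was -0.05 with a 95% interval of -0.16 to 0.07. It varied least of the 8 over the 12 arrays (SD 0.097, against 0.578 for Itgam), and none of its 33 probe sets was called between groups. Itgax lay near the level of the filter, 6.26, with 18 of its 36 probe sets below it. Its values ran from 6.69 to 6.95, from 6.71 to 6.89 and from 6.68 to 7.44 in the 3 groups, in the order named above. Its difference between HOXA9+MEIS1 and HOXA9+MIY was 0.04 with an interval of -0.28 to 0.36. The interval bounds the difference in array signal, and with signal this near the filter it does not bound a change in RNA. The high Itgax value of 7.44 belongs to HOXA9+MDHD week 3 replicate 2.

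Itgb7, the beta subunit gene of the gut-homing integrin, moved the other way. It stood at 8.90, 8.81, 8.80 and 9.03 in HOXA9+MIY, at 9.36, 9.24, 10.05 and 9.88 in HOXA9+MEIS1, and at 9.00, 9.17, 9.65 and 9.36 in HOXA9+MDHD. The arrays of HOXA9+MEIS1 lay above all of HOXA9+MIY, and those of HOXA9+MDHD overlapped with each of the other groups. Its log2 difference between HOXA9+MEIS1 and HOXA9+MIY was 0.75 ± 0.118 (adjusted p = 0.00121 by limma), and 17 of its 19 probe sets were called higher. The other 2 were higher by 0.0065 and 0.34 without a call, and the first of them, 5319416, departed from the rest of the gene by -0.78 (adjusted p = 8.80e-04 by diffSplice and 0.0100 with its own spread). The call of Itgb7 held in each of the 25 alternatives tried, with log2 differences of 0.45 to 1.05.

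Itga4, its alpha partner, was not called between groups. It stood at 7.95, 7.95, 8.35 and 8.37 in HOXA9+MIY and at 7.97, 7.96, 8.32 and 8.32 in HOXA9+MEIS1, a difference of -0.01 with a 95% interval of -0.26 to 0.23. Selplg ranged from 12.30 to 12.50 and from 12.31 to 12.65 in these groups, a difference of 0.09 (interval -0.06 to 0.23). Cd44 ranged from 8.75 to 8.79 and from 8.48 to 8.81, a difference of -0.08 (interval -0.38 to 0.21). Although Cd44 has alternative exons, none of its 31 probe sets was called in any comparison between groups. None of the 27 above the filter departed from the gene by both tests there, and the 4 below it were not tested for departure.

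**Figure D2:**
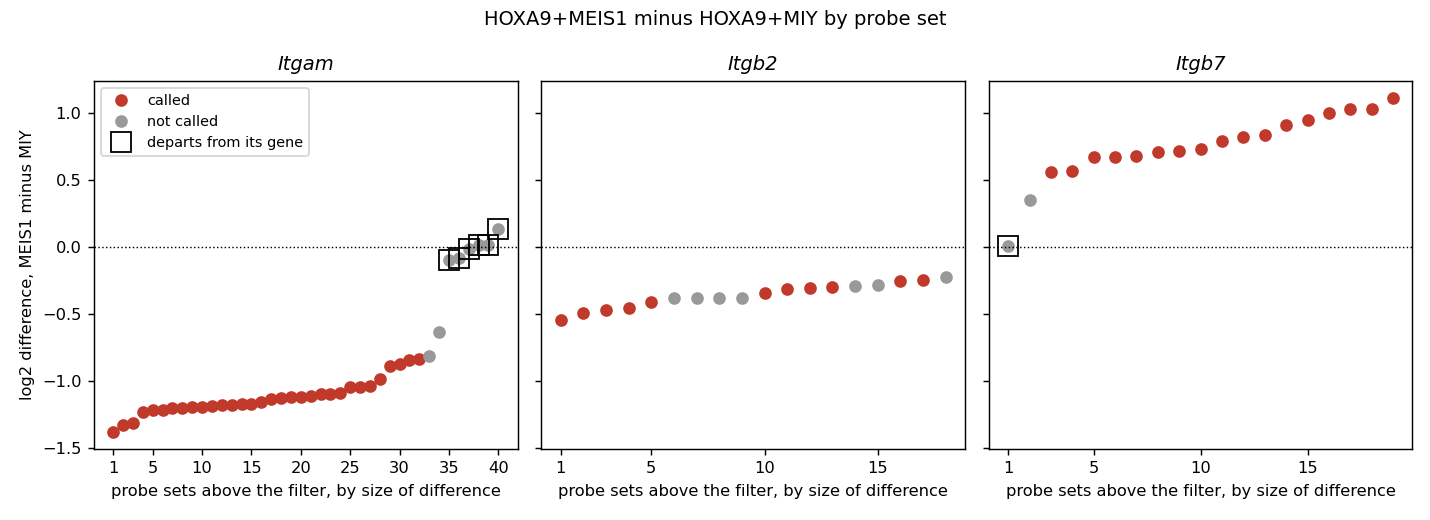
Log2 difference of HOXA9+MEIS1 minus HOXA9+MIY for each probe set above the filter of the 3 called members, ordered by the difference, with called probe sets in red and squares around those that depart from their gene. Of Itgam's 40 probe sets 6 lie near 0 between -0.10 and 0.13, apart from the rest, and 1 of the 19 of Itgb7 does, while all 18 of Itgb2 lie below 0.

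HOXA9+MDHD was set against HOXA9+MIY to ask what remains when Meis1 lacks the part that binds DNA. No member was called, where 1.91% of all genes were, although 4 (Itgb2, Itga4, Itgb7 and Selplg) had an unadjusted limma p under 0.05, as did 2770 of all genes. The median difference of the 8 was -0.0064, beside -0.013 for all genes. Itgb2 was 1.23-fold lower (log2 -0.30 ± 0.092, adjusted p = 0.143) and was the 1 member whose arrays did not overlap between these groups, against 4.18% of genes. Itgb7 was 1.33-fold higher (0.41 ± 0.118, adjusted p = 0.114) and Itgam differed by -0.13 with a 95% interval of -0.53 to 0.27. Of the member probe sets 3 of Itgb7 were called higher and 1 of Itgb2 lower, beside 0.685% higher and 0.534% lower of all named probe sets.

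The count rested on single arrays. Without HOXA9+MDHD week 4 replicate 2, the array with the highest Itgam (12.15), the highest late neutrophil marker mean of its group (10.18) and the lowest signal from the 3 Meis1 probe sets above (6.80), 3 members were called: Itgb2 (-0.39, adjusted p = 0.0107 by limma), Itga4 (0.44, adjusted p = 0.00573) and Selplg (-0.25, adjusted p = 0.00382). Member probe sets called then numbered 27, against 4 with all arrays and 0 to 2 without any 1 of the HOXA9+MIY arrays or of the other HOXA9+MDHD arrays. Without both arrays of replicate number 2, those with the lower signal from the 3 Meis1 probe sets at each week, 5 members were called. Itgam was among them at -0.54 (adjusted p = 0.00141 by limma) and Cd44 at -0.51 (adjusted p = 0.00841). The shares of all genes and probe sets called in these fits are not given here, so these counts are not read as a result about the members. In the 2 remaining arrays of number 1 Itgam stood at 10.93 and 11.12, between the ranges of the other groups. Over the 4 HOXA9+MDHD arrays, in the order used above, the late neutrophil marker mean was 8.95, 8.29, 9.55 and 10.18, and the monocyte and macrophage marker mean was 9.33, 9.54, 9.34 and 9.79. The second of these ranks the arrays as Itgam does, and the first does not at week 3. The part of marker levels and of signal from the 3 Meis1 probe sets in these values was not tested.

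Between the Meis1 forms, HOXA9+MEIS1 against HOXA9+MDHD, Itgam was called alone, at 1.91-fold lower with full-length Meis1 (log2 -0.93 ± 0.184, adjusted p = 0.0123 by limma). This makes 1 of 8 called, and lower, where 4.36% of genes were called and 2.11% lower. The median difference of the members was -0.10, beside 0.0071 for all genes. Of Itgam's probe sets 32 were called lower, against 1.53% of named probe sets, while 1 of Itgb7 and 1 of Selplg were called higher, against 1.24%. The arrays did not overlap for Itgam and, without a call, for Itgal (-0.16 ± 0.052, adjusted p = 0.130), against 5.21% of genes. The call of Itgam was lost without the week term (adjusted p = 0.0578), with these groups alone in the fit (0.0579) and within week 3 (-0.84, 0.0946) or week 4 (-1.02, 0.213). Without HOXA9+MDHD week 4 replicate 2, Itga4 (-0.45, adjusted p = 0.00497 by limma) and Selplg (0.34, adjusted p = 5.02e-04) were called beside Itgam. The share of all genes called in that fit is not given here.

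Set in order, the group means of Itgam ran HOXA9+MEIS1 (10.51), HOXA9+MDHD (11.44) and HOXA9+MIY (11.57), with no called difference between the upper neighbours. For Itgb2 the order was the same (11.44, 11.51 and 11.80), with the lower neighbours not called apart. For Itgb7 it was reversed, with HOXA9+MIY at 8.88, HOXA9+MDHD at 9.30 and HOXA9+MEIS1 at 9.63, and neither neighbouring pair was called, only the ends. For Itga4 and Itgal HOXA9+MDHD was highest (8.46 and 11.20), for Selplg and Cd44 lowest (12.24 and 8.53), and for Itgax the 3 means lay within 6.78 to 6.96, all without a call. The HOXA9+MDHD arrays spread more widely than those of HOXA9+MIY in 7 of the 8 genes, Itgal being the exception. These 3 comparisons share their groups and are not independent of each other.

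**Figure D3:**
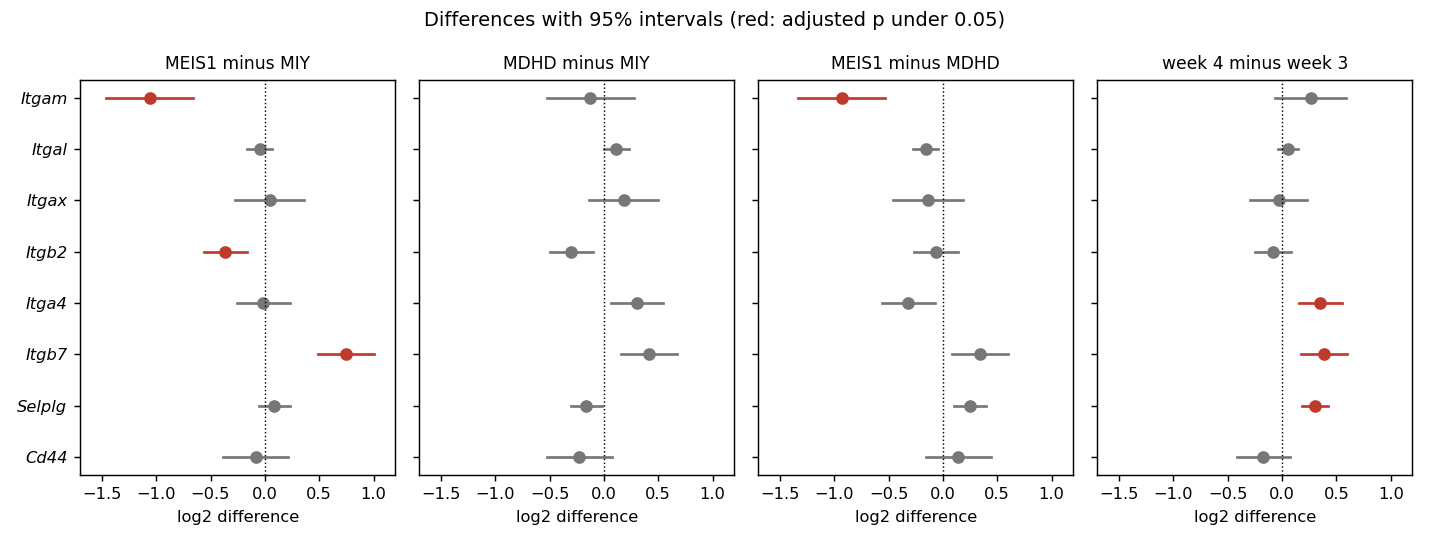
Log2 difference of each member in the 3 comparisons of groups and between weeks, with its 95% interval from limma, in red where the adjusted p over all genes was under 0.05. Itgam, Itgb2 and Itgb7 are red for HOXA9+MEIS1 minus HOXA9+MIY, Itgam alone for HOXA9+MEIS1 minus HOXA9+MDHD, none for HOXA9+MDHD minus HOXA9+MIY, and Itga4, Itgb7 and Selplg between weeks. Itga4 is drawn from the probe sets that name it alone.

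Since alpha and beta subunits work as pairs, the difference between partner genes was taken within each array and compared between groups by a two-sided exact permutation test over arrays (70 arrangements, smallest possible p of 0.0286), adjusted over 12 tests. Partner genes moved unequally in 8 of the 12, each at an exact p = 0.0286 and adjusted p = 0.0429, and all 4 arrays of a group lay on one side of the other group in each of the 8. Itgam relative to Itgb2 was lower by -0.69 in HOXA9+MEIS1 than in HOXA9+MIY and by -0.87 than in HOXA9+MDHD. Itgal relative to Itgb2 was higher than in HOXA9+MIY by 0.32 in HOXA9+MEIS1 and by 0.41 in HOXA9+MDHD. Itgax relative to Itgb2 was higher by 0.41 and 0.48 in the same groups, where Itgax itself lay near the filter, which limits what this difference can show. Itga4 relative to Itgb7 was lower in HOXA9+MEIS1 by -0.76 than in HOXA9+MIY and by -0.66 than in HOXA9+MDHD. For Itgal and Itgax these values carry mainly the lower Itgb2 (-0.36 in HOXA9+MEIS1), since the genes themselves differed from HOXA9+MIY there by -0.05 and 0.04. Only 7 or more tests at the smallest p can pass here, and with a higher level required of a probe set, which left 2 probe sets of Itgax, 0 of 12 passed.

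**Figure D4:**
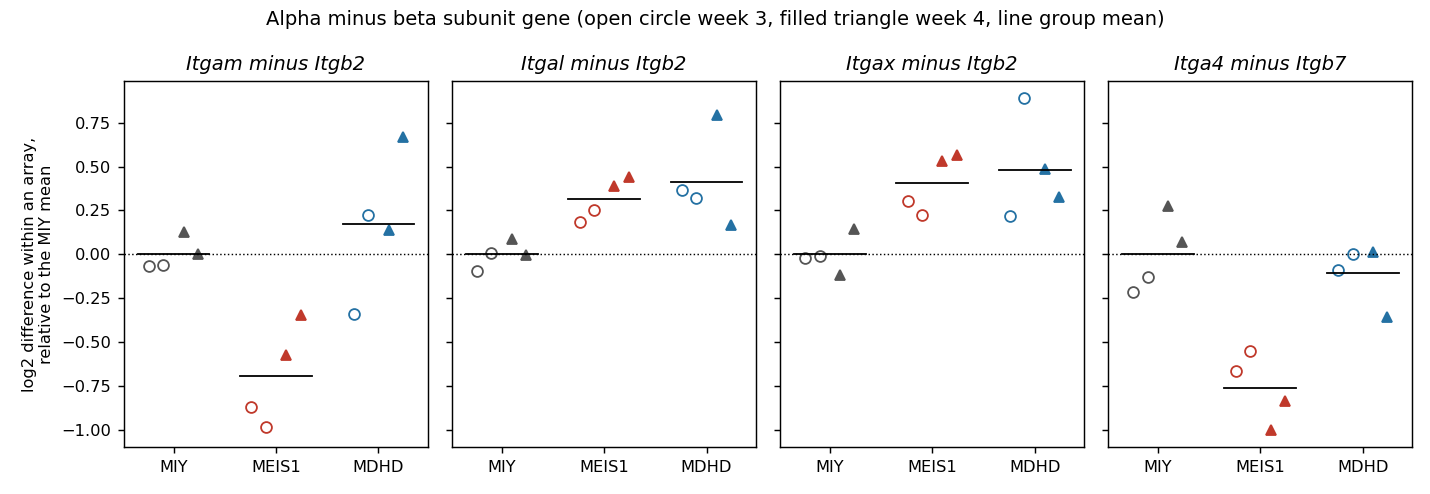
Log2 value of an alpha subunit gene minus that of its beta partner on each array, relative to the HOXA9+MIY mean of that difference, with open circles for week 3, filled triangles for week 4 and a line at the group mean. For Itgam minus Itgb2 the HOXA9+MEIS1 mean lies 0.69 below that of HOXA9+MIY, and for Itgal minus Itgb2 it lies 0.32 above.

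With culture time, Itga4 (by the probe sets that name it alone), Itgb7 and Selplg were called higher at week 4 than at week 3 and no member was called lower. These 3 of 8 stand beside 39.8% of all genes called, 11.7% higher. The median difference of the members was 0.16, beside -0.022 for all genes, and no member's arrays separated the weeks, as 22.1% of genes did. Among called genes 29.5% were higher, 46.2% after quantile normalization and 41.9% after median centring, so that the split depends on scaling. Itga4, Itgb7 and Selplg were called under each, and Itgal was also called after quantile normalization (0.19, adjusted p = 9.80e-04 by limma, against 0.06 and 0.346 as deposited). With the probe sets that also name Cerkl included, Itga4 was not called (log2 -0.08, adjusted p = 0.398 by limma), as described below. Itgam was at 0.27 (adjusted p = 0.189) and was called in 3 of 21 alternatives, among them without HOXA9+MDHD week 4 replicate 1 (0.38, adjusted p = 0.0391).

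Selplg, the P-selectin ligand gene, rose 1.24-fold (log2 0.31 ± 0.055, adjusted p = 6.13e-04 by limma). It went from 12.32 and 12.30 at week 3 to 12.50 and 12.50 at week 4 in HOXA9+MIY, from 12.37 and 12.31 to 12.64 and 12.65 in HOXA9+MEIS1, and from 12.09 and 11.98 to 12.28 and 12.63 in HOXA9+MDHD. Within every group both week 4 arrays lay above both week 3 arrays. Of its 13 probe sets 12 were called higher, where 7.46% of named probe sets were called higher and 23.2% lower. Taken by group, the rise was called in HOXA9+MEIS1 (0.30, adjusted p = 0.0282) and HOXA9+MDHD (0.42, adjusted p = 0.00950) and not in HOXA9+MIY (0.19, adjusted p = 0.173), where 28.1%, 19.2% and 20.6% of genes were called. A difference in the rise between groups was not called in any pair (limma interaction, lowest adjusted p = 0.870).

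Itgb7 rose 1.30-fold over all arrays (log2 0.38 ± 0.097, adjusted p = 0.00648 by limma), with 13 of 19 probe sets called higher. By group the rise was 0.67 in HOXA9+MEIS1 (adjusted p = 0.00241), 0.42 in HOXA9+MDHD (adjusted p = 0.0361) and 0.06 in HOXA9+MIY (adjusted p = 0.796). The difference between HOXA9+MEIS1 and HOXA9+MIY was 0.45 at week 3 and 1.05 at week 4. The test of that change, 0.61 ± 0.172, did not pass (adjusted p = 0.552). No gene at all passed it in any of the 3 comparisons of groups, 0% of genes in each (0%, 0% and 0%), while 1343, 997 and 1547 genes had an unadjusted limma p under 0.05, Itgb7 and Itgal among the first.

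Itga4 rose 1.28-fold by the probe sets that name it alone (log2 0.35 ± 0.091, adjusted p = 0.00773 by limma), with 9 of 21 called higher. This rise does not hold over all probe sets that name Itga4. A further 58 probe sets name Itga4 and Cerkl, a ceramide kinase-like gene, together, and 0 name Cerkl alone, so that their signal cannot be assigned to either gene. Over the 53 of them above the filter the difference was -0.14 ± 0.072 (adjusted p = 0.155), with 14 called lower and 1 higher, and over both kinds together it was -0.08 (adjusted p = 0.398). Of the probe sets naming Itga4 alone, 4392424 departed downward (-0.64) and 5298372 upward (0.51) from the rest of the gene by both tests, where 8.1% of probe sets departed. Between groups the shared probe sets gave 0.08, 0.19 and -0.11 for HOXA9+MEIS1 minus HOXA9+MIY, HOXA9+MDHD minus HOXA9+MIY and HOXA9+MEIS1 minus HOXA9+MDHD, none of them called. This choice of probe sets was made after seeing the data.

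**Figure D5:**
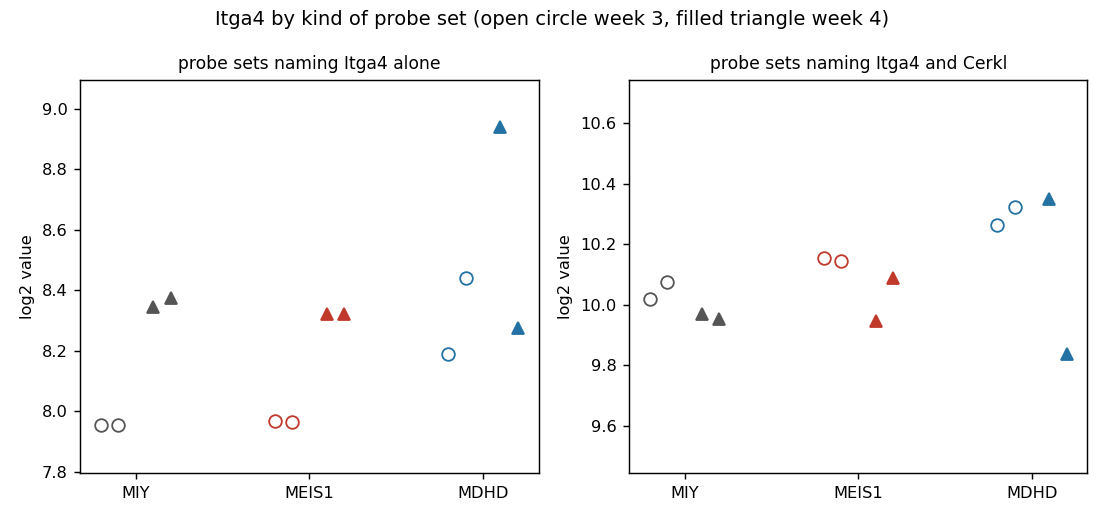
Log2 value of Itga4 on each array from the probe sets that name it alone (left) and from those that name Itga4 and Cerkl (right), by group, with open circles for week 3 and filled triangles for week 4. On the left both week 4 arrays lie above both week 3 arrays in HOXA9+MIY and HOXA9+MEIS1, and on the right they lie below them.

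The rest of the adhesion genes were taken from 6 lists. In HOXA9+MEIS1 against HOXA9+MIY, 1 of 20 subunit genes of other integrins was called, Itgav, the alpha subunit of vitronectin receptors, at 1.93-fold higher (log2 0.95 ± 0.081, adjusted p = 1.38e-05 by limma). It was also called in HOXA9+MDHD against HOXA9+MIY (0.55, adjusted p = 0.00681) and between the Meis1 forms (0.40, adjusted p = 0.0144), so that HOXA9+MDHD (10.30) lay between HOXA9+MIY (9.76) and HOXA9+MEIS1 (10.70). The median of the list was -0.027, beside -0.0055 for all genes. Itgb1, the other beta partner of alpha 4, was not called between groups and fell with time by 0.35 on the log2 scale (adjusted p = 5.71e-05), 1 of 4 genes of the list called between weeks, of which 3 rose, led by Itgb5 (0.59).

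Among 15 endothelial and matrix ligands, 4 were called higher and 2 called lower with Meis1 than with the empty vector. The median of the list was -0.06, and of all genes 5.29% were called higher and 5.56% lower. Fn1, which encodes fibronectin, a ligand of alpha 4 integrins, was 8.34-fold lower (log2 -3.06 ± 0.400, adjusted p = 3.17e-04 by limma), and lower than with MDHD as well (-1.83, adjusted p = 0.0216). F11r, the junctional adhesion molecule that binds LFA-1, was lower by -0.78 (adjusted p = 0.00816), while Thy1 (0.76), Jam2 (0.67) and Lama5 (0.56) were higher. Pecam1, which encodes the endothelial and leukocyte molecule CD31, was higher in HOXA9+MEIS1 (0.49, adjusted p = 3.21e-05) and, by less, in HOXA9+MDHD (0.21, adjusted p = 0.0387). Between weeks Fn1 rose by 1.22 (adjusted p = 0.00926), Lama5 rose by 0.34 and Icam2 fell by 0.40 on the log2 scale.

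Of the 17 measured genes for selectins, mucin ligands and the enzymes that build selectin ligands, 1 was called higher and 1 lower with Meis1. The median of the list was 0.03, and of all genes 5.29% were called higher and 5.56% lower. Cd34, a mucin of progenitors, was 2.36-fold higher (log2 1.24 ± 0.176, adjusted p = 5.81e-04 by limma) and 2.22-fold higher in HOXA9+MDHD (1.15, adjusted p = 0.00807). Selp, P-selectin itself, was 3.56-fold lower in HOXA9+MEIS1 (-1.83 ± 0.175, adjusted p = 3.26e-05) and also lower than in HOXA9+MDHD (-1.29, adjusted p = 0.00114), as was the mucin gene Podxl (-1.36, adjusted p = 0.0411). With time 9 of the 17 were called lower and 1 higher, where 28.1% of all genes were called lower and 11.7% higher. The median of the list was -0.24, beside -0.022 for all genes. After quantile normalization 6 were called lower and 3 higher, and between HOXA9+MEIS1 and HOXA9+MIY 4 were then called higher and 1 lower. The falls were largest in the fucosyltransferase gene Fut4 (-0.89), the tyrosine sulfotransferase gene Tpst1 (-0.72) and the galactosyltransferase gene C1galt1 (-0.54), and Gcnt1, which branches the sugar chain, rose by 0.55.

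Of 30 measured activation and linkage genes 11 were called lower and 1 higher with full-length Meis1 than with the empty vector. The median of the list was -0.10, and 5.56% of all genes were called lower. Fyb, an adaptor of integrin activation, was 3.04-fold lower (log2 -1.60 ± 0.10, adjusted p = 1.29e-06 by limma). Actn1, an alpha-actinin gene (-1.43), and Flna, which encodes filamin A (-0.47), were lower too, and Parvb, a parvin that binds integrin-linked kinase, was higher (0.65, adjusted p = 0.0148). None of the 30 was called in HOXA9+MDHD against HOXA9+MIY. Between the Meis1 forms 6 were called lower and 1 higher, Fyb at -1.21 and Parvb at 0.74, where 2.11% of all genes were called lower. Between weeks 10 of the 30 were called lower and 3 higher, near the shares of all genes (28.1% and 11.7%). After quantile normalization 5 were called lower and 9 higher, so that the direction of this list depends on scaling.

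Of 14 kinases and exchange factors downstream of leukocyte integrins, Fgr, a Src family kinase of myeloid cells, was lower in HOXA9+MEIS1 than in HOXA9+MIY (-1.13 ± 0.158, adjusted p = 5.18e-04 by limma) and than in HOXA9+MDHD (-0.67, adjusted p = 0.0308), and no other was called. Between weeks 4 of the 14 were called higher and 2 lower, where 11.7% of all genes were called higher and 28.1% lower. After quantile normalization 8 were called higher and 1 lower. Of 16 genes around Cd44, hyaluronan receptors, synthases, hyaluronidases, ERM linkers and sheddases, 2 were called lower with Meis1. They were Cd74 (-1.20, adjusted p = 0.0231), the invariant chain that also works with Cd44 as a receptor, and the scavenger receptor gene Stab1 (-0.47, adjusted p = 0.0210). The count of 2 stands beside 5.56% of all genes called lower. Cd74 (-1.25) and the linker gene Ezr (-0.32) were lower than in HOXA9+MDHD. Between weeks 2 of the 16 were called higher, Hyal1 by 1.17 and Stab1 by 0.32, and 3 were called lower. After quantile normalization 3 were called higher and 2 lower. All probe sets of Fut9, a fucosyltransferase gene, lay below the filter.

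Itgam was the 1 member that varied by an SD above 0.5 over the 12 arrays, and the genes most like it were sought by the root mean square distance between centred log2 values over those arrays. The nearest 3 named genes were Als2cl (distance 0.157), related to the guanine exchange factor alsin, Creb5 (0.171), a transcription factor of the CREB family, and Slc7a7 (0.179), an amino acid transporter subunit. The group means of Creb5 were 9.30 with the empty vector, 7.94 with full-length Meis1 and 9.14 with the deleted form. Als2cl stood at 8.23, 7.35 and 8.04, and Slc7a7 at 8.57, 7.70 and 8.58. In HOXA9+MDHD week 4 replicate 2, where Itgam was highest, they stood at 8.71, 9.72 and 9.52 (Als2cl, Creb5 and Slc7a7). The arrays share their groups, so that the likeness describes these 12 arrays.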

How the data were processed

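RNA of 12 samples was labelled with biotin by the WT Terminal Labeling Kit and hybridised to Affymetrix mouse exon arrays, per the labels' protocols. The authors deposited log2 values per probe set, made by RMA in Affymetrix Expression Console, per the submitters' processing notes; versions and genome build are not given in the sources used here. Of 1256831 probe sets, 318760 name 1 symbol and 6684 name several; 20744 at 0 on all arrays carried no signal. Array medians were 6.258 to 6.301, and no further normalization was applied.

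Gene values are median polish fits over singly named probe sets with a mean above the 50th percentile (log2 6.26); 29 genes did not converge. limma 3.58.1 (R 4.3.3) fitted group and week over all 12 arrays (8 residual degrees of freedom, trended eBayes), with Benjamini-Hochberg adjustment over 20711 genes or 318760 probe sets and a threshold of 0.05. In simulated data diffSplice made many calls in unchanged genes, so a departing probe set had also to pass a test with its own spread, added after seeing the data. The number of arrays limits the precision. Members and lists were chosen with earlier results of these data known. All 8 members, the 3 genes nearest to a member with an SD above 0.5, and up to 4 called genes of largest difference per list and comparison are named. Alternatives covered summarising, filter, scaling, the week term, a replicate block, the arrays fitted and each array left out.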

Additional observations from a re-analysis of the deposited data

Results flagged for a closer look

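One value stood apart from its group. Itgal in HOXA9+MDHD week 4 replicate 1 was 11.31, and the nearest of the other 3 arrays of the group was 11.18, a gap of 0.865 of the range of the group, above Dixon's critical value for 4 samples. Of 24 such groups tested this was the 1 that passed, and chance passes about 1 in 20. The test of whether a difference between groups itself differed between the weeks passed for none of the 24 member and comparison pairs (limma, adjusted over all genes).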

How the results depend on the processing

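Of the values of single members under the alternatives, 740 kept their side of the threshold, 19 gained a call, 12 lost one and 1 reversed. Reversed means a change of sign with a call in the main fit or in the alternative. Values called in neither count among the 740 whatever their sign, as for Itgal between HOXA9+MEIS1 and HOXA9+MIY (-0.15 to 0.06). The cause of these changes was not tested. The reversed value is Itga4 between weeks, at -0.083 with the probe sets that also name Cerkl, an alternative chosen after seeing the data. Members called between HOXA9+MEIS1 and HOXA9+MIY numbered 1 (Itgb7) with week 4 arrays only, where fewer arrays are fitted, and 2 to 3 with any array left out. Between HOXA9+MDHD and HOXA9+MIY they numbered 5 without both HOXA9+MDHD arrays of number 2 and 0 to 3 with any array left out, and member probe sets called 0 to 27. Between the Meis1 forms they numbered 2 after quantile normalization (Itgam and Selplg), 0 without a week term, with only the groups compared or with week 4 arrays only, 4 without both arrays of number 2, and 1 to 3 with any array left out. With week 3 arrays only, the 1 called was Selplg. The shares of all genes and probe sets called in these fits are not given here, so these counts are not read as a result about the members. Partner differences called fell from 8 to 0 under the stricter filter. Departing probe sets between weeks numbered 9 with the spread of each probe set alone, against 3 by diffSplice.

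Matched replicate numbers gave no sign of pairing in the 12 pairs compared (deviations correlated at -0.315 to -0.0149, against -0.271 to 0.0472 for other numbers). Whether arrays of the same group and number share a culture across weeks is not settled here. In HOXA9+MDHD number 2 lay above number 1 at both weeks for Itgam, Itgb2, Itgax and Cd44. For Itgal, Itga4, Itgb7 and Selplg the order turned between the weeks. The fits and the permutation test take all arrays of a group as separate. A replicate block, which joins arrays of the same week and number, gave 3, 0, 1 and 3 called members for the comparisons in the order of the text. Of all genes 9.85%, 1.64%, 3.71% and 38.8% were called in these fits, so that the last count lies near its share. The members called were the same genes as without the block. Dim signal limits Itgax, with 2 probe sets under the stricter filter, 18 in the values reported and 36 with none.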
